A study of Mus musculus with 10 samples.

Results

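Expression of 9 cell-surface receptors for hormones and catecholamines was described in livers of germ-free (GF) mice that received gut microbiota-derived extracellular vesicles (MEV) or vehicle. The 9 genes (*Gcgr*, *Adra1a*, *Adra1b*, *Adra2b*, *Avpr1a*, *Pth1r*, *Adcyap1r1*, *Ednrb* and *Agtr1a*) were selected by name, with no numeric threshold, from measured values of the same GF+MEV against GF+PBS comparison, so their differences are given as a description without a test. All 9 were among the 12147 genes tested. The mice were C57BL/6, and MEV prepared from specific pathogen-free mice were given by mouth in PBS at 80 μg, on 2 occasions a week over 3 weeks (GF+MEV, n = 5), while control GF mice received PBS alone (GF+PBS, n = 5). Both groups were therefore GF. Whole liver was sequenced with 1 library per mouse. Age and sex of these GF mice were not given in the sources used here.

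Several of these receptors couple circulating hormones and nerve-derived noradrenaline to glucose output by hepatocytes. Glucagon acts through a Gs-coupled receptor that raises cyclic AMP (cAMP), whereas α1-adrenergic, vasopressin V1a and angiotensin AT1 receptors act mainly through Gq, phospholipase C and calcium. Both routes activate glycogen phosphorylase, and α2-adrenergic receptors act through Gi, which lowers cAMP.

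Libraries held 15746119 to 20523649 counts on genes in GF+MEV and 16140770 to 19733387 in GF+PBS. Levels are given as CPM, the count scaled to a common library size by TMM. Of 12147 genes, 928 (7.64%) passed an edgeR adjusted p of 0.05, of which 500 (4.12%) were higher and 428 (3.52%) lower in GF+MEV. GF+MEV replicate 2 stood apart from its group: the chi-square per gene was 135 to 176 in its 4 pairs and 6.36 to 25 in the 16 other pairs of one group, and its TMM factor was 0.890. Without it, the log2 fold changes of the 9 receptors moved by -0.02 (*Avpr1a*) to 0.12 (*Adcyap1r1*). Hepatocyte markers marked the tissue, with *Alb* at 76250 ± 7005 CPM (SD, n = 5) in GF+MEV and 78080 ± 4590 CPM (SD, n = 5) in GF+PBS.

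Promoter sequences are shown for the 3 receptors that were lower in every GF+MEV liver than in any GF+PBS liver. RefSeq promoter windows on GRCm38.p6 were matched for 7 of the 9 receptors, in 10 windows, and *Adra1a* and *Agtr1a* had none. Each window holds the 250 bases before a start, 5′ to 3′ on the gene's strand, and capitals mark the GC box (GGGCGG, or CCGCCC on the other strand). The windows were chr2:127362929-127363178 (+ strand) for *Adra2b*, chr11:43836490-43836739 (− strand) for *Adra1b*, the nearer of 2 windows to its start codon, and chr9:110743687-110743936 (− strand) for *Pth1r*, 1 of 3 windows.
*Adra2b*: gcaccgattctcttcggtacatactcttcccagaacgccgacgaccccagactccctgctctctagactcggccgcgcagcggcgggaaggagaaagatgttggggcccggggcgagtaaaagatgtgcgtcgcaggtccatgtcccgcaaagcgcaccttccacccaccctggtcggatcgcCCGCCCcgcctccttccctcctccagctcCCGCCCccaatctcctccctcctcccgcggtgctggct
*Adra1b*: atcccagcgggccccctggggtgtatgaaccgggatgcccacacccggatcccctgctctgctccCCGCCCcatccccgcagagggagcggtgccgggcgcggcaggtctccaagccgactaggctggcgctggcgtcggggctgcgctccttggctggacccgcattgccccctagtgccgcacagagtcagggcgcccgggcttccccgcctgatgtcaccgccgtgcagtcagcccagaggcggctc
*Pth1r*: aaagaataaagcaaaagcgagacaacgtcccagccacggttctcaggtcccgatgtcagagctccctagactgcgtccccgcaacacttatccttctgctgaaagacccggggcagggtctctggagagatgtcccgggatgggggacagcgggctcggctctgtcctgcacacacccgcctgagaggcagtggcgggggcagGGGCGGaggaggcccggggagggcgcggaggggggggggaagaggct
These windows held 66.0%, 72.8% and 65.6% G and C, against a median of 52.4% (quartiles 45.2% and 61.2%) over 32851 windows of the same length. The GC box was found in 6 of the 10 receptor windows, those of *Adcyap1r1*, *Adra1b*, *Adra2b*, *Gcgr* and *Pth1r*, and in 32.7% of all windows. The half-site of the cAMP response element (TGACG, either strand) was found in 3 of 10 windows, of *Avpr1a*, *Ednrb* and *Pth1r*, against 17.8% of all windows. The glucocorticoid half-site AGAACA was found in 2 windows (16.1% of all), the TATA box TATAAA in 1 (12.4%), and the E-box CACGTG in 0 (6.0%). In the 3 printed windows none of the other 4 motifs occurred, so the GC boxes there overlapped no other motif. The printed *Pth1r* window was not the nearest to its start codon. The nearest *Pth1r* window held 4 GC boxes and 70.4% G and C, with 109 bases in annotated exons. The farthest held no GC box, but 1 half-site of the cAMP response element and 1 glucocorticoid half-site. A match is a run of letters, and no binding was measured.

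Of the 9 receptors, 8 had a lower mean in GF+MEV, and *Agtr1a* a higher one. The median log2 fold change of the 9 was -0.26, beside -0.0037 over all tested genes. The groups did not overlap for 3 of 9, *Adra1b*, *Adra2b* and *Pth1r*, all lower in GF+MEV, where 7.39% of all genes did not overlap in either direction and 3.45% did not overlap and were lower. The same 3 were past the adjusted p threshold that 7.64% of all genes passed, a count that ran from 1 to 3 under the alternatives. Nothing is read from these counts, because the receptors were chosen from this comparison.

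**Figure D1:**
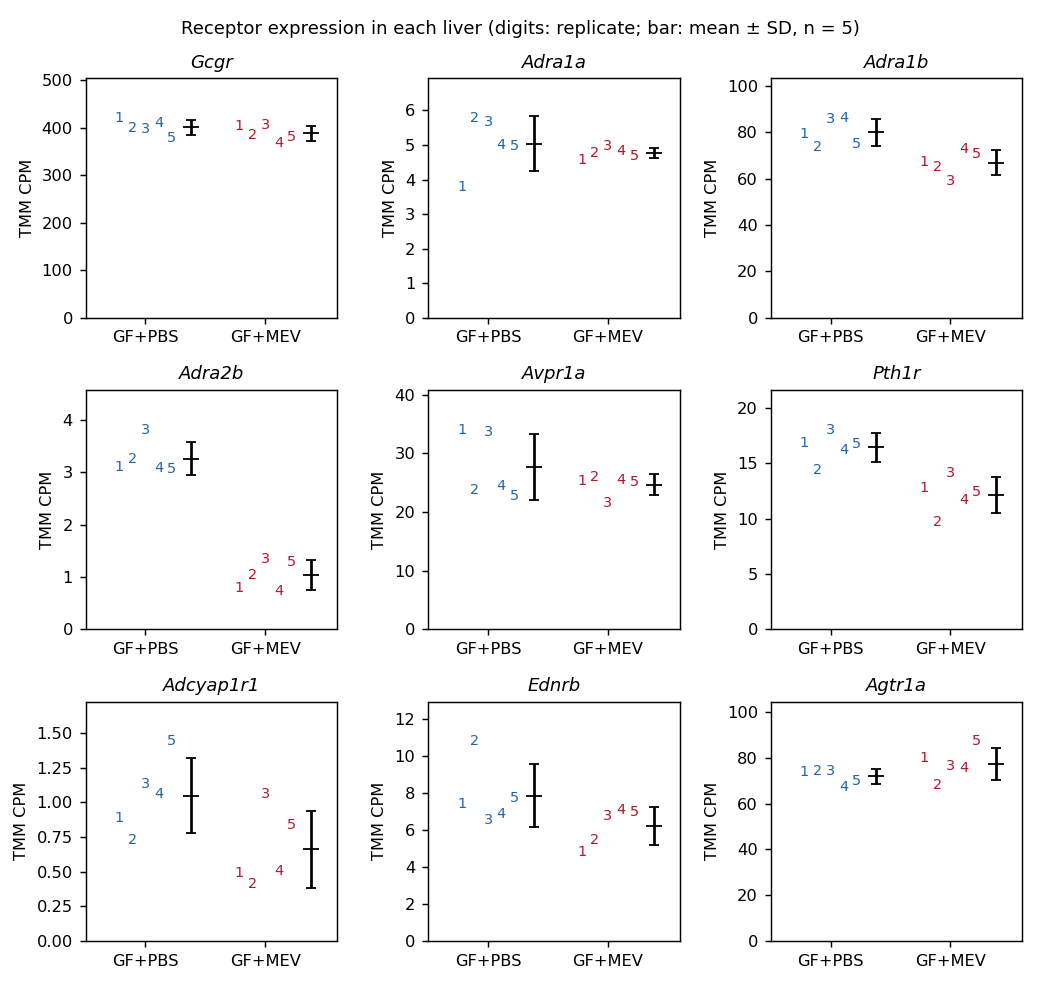
TMM CPM of each receptor (vertical axis from 0) in each of 5 GF+PBS and 5 GF+MEV livers. Digits are replicate numbers and black bars are mean ± SD. *Adra1b*, *Adra2b* and *Pth1r* were lower in all GF+MEV livers than in any GF+PBS liver, and the other 6 overlapped.

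*Gcgr* (ENSMUSG00000025127), which encodes the glucagon receptor, spans chr11:120530699-120538986 (+ strand) on GRCm38. It was at 404, 384, 405, 368 and 380 CPM in GF+MEV replicates 1 to 5 and at 420, 399, 397, 410 and 378 CPM in GF+PBS replicates 1 to 5. The groups overlapped through most of their range. Means were 388 ± 16 CPM (SD, n = 5) and 400.8 ± 16 CPM (SD, n = 5), a log2 fold change of -0.05 (SE 0.04).

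*Adra1b* (chr11:43774606-43901210, − strand), which encodes the α1B-adrenergic receptor through which noradrenaline raises hepatocyte calcium, was at 67.2, 64.9, 59.1, 73.0 and 70.5 CPM in GF+MEV and 79.2, 73.7, 85.8, 86.1 and 75.2 CPM in GF+PBS. The groups were separate but close, since the highest GF+MEV liver (replicate 4) lay just under the lowest GF+PBS liver (replicate 2). The mean was 66.9 ± 5.36 CPM (SD, n = 5) in GF+MEV and 80.0 ± 5.76 CPM (SD, n = 5) in GF+PBS, 16.4% lower (log2 fold change -0.26, SE 0.07). Its log2 fold change was between -0.30 and -0.22 over 18 alternative analyses.

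*Adra1a* (chr14:66635251-66771168, + strand), the α1A subtype, was at 4.57, 4.76, 4.97, 4.83 and 4.69 CPM in GF+MEV and 3.78, 5.77, 5.65, 5.0 and 4.98 CPM in GF+PBS. GF+PBS livers lay on both sides of the narrow GF+MEV range. Its log2 fold change was -0.08 (SE 0.11). The within-liver ratio of *Adra1b* to *Adra1a* was taken on CPM divided by the length of annotated exons. Its median was 37.9 (30.7 to 39.0) in GF+MEV and 39.2 (33.0 to 54.2) in GF+PBS, and the ranges overlapped.

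*Adra2b* (chr2:127363208-127367221, + strand), which encodes the Gi-coupled α2B-adrenergic receptor, had the largest difference of the 9. It was at 0.793, 1.03, 1.35, 0.730 and 1.29 CPM in GF+MEV and 3.11, 3.25, 3.81, 3.08 and 3.06 CPM in GF+PBS. All GF+MEV livers lay far below all GF+PBS livers. These values came from 13, 15, 28, 13 and 20 counts in GF+MEV and from 56, 58, 64, 61 and 51 counts in GF+PBS. Means were 1.04 ± 0.280 CPM (SD, n = 5) and 3.26 ± 0.314 CPM (SD, n = 5), 68.2% lower in GF+MEV (log2 fold change -1.64, SE 0.17). Its log2 fold change was between -1.77 and -1.53 over the same 18 alternatives. On CPM divided by the length of annotated exons, the ratio of *Adra1b* to *Adra2b* was 51.9 to 119 (median 74.4) in GF+MEV. In GF+PBS this ratio was 26.7 to 33.1 (median 29.2), without overlap.

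*Avpr1a* (chr10:122448499-122453452, + strand), which encodes the V1a receptor for vasopressin, was at 25.3, 25.9, 21.6, 25.4 and 25.2 CPM in GF+MEV and 34.0, 23.8, 33.7, 24.4 and 22.8 CPM in GF+PBS. GF+PBS replicates 1 and 3 were high, and the other 3 GF+PBS livers lay within the range of GF+MEV. The means, 24.7 ± 1.74 CPM (SD, n = 5) in GF+MEV and 27.8 ± 5.61 CPM (SD, n = 5) in GF+PBS, gave a log2 fold change of -0.17 (SE 0.14). Without GF+PBS replicates 1 and 3 it was 0.06, an analysis added after these values were seen.

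*Agtr1a* (chr13:30336441-30382867, + strand), which encodes the AT1 receptor for angiotensin II, was at 79.8, 68.2, 76.3, 75.6 and 87.2 CPM in GF+MEV and 74.0, 74.4, 74.4, 67.3 and 69.7 CPM in GF+PBS. The groups overlapped, with GF+MEV replicate 5 the highest of the 10 livers. It was the receptor with a higher mean in GF+MEV, at 77.4 ± 6.90 against 72.0 ± 3.29 CPM (SD, n = 5 per group), a log2 fold change of 0.11 (SE 0.06).

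*Pth1r* (chr9:110722085-110747145, − strand) encodes the receptor for parathyroid hormone and its related peptide. It was at 12.8, 9.66, 14.1, 11.7 and 12.4 CPM in GF+MEV and 16.8, 14.4, 18.0, 16.2 and 16.7 CPM in GF+PBS. GF+MEV replicate 3 and GF+PBS replicate 2 nearly met at the boundary between the groups. Means were 12.1 ± 1.64 CPM (SD, n = 5) and 16.4 ± 1.31 CPM (SD, n = 5), 26.1% lower in GF+MEV (log2 fold change -0.43, SE 0.10). Exons of *Pth1r* share 95 bp (3.25% of its exon length) with *Myl3* on the other strand, and the strand setting of the counting was not given, so reads there cannot be told apart. The *Myl3* log2 fold change, at 0.31 (edgeR adjusted p = 0.335), was opposite in sign.

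*Ednrb* (chr14:103814625-103844402, − strand) encodes the endothelin B receptor, known in liver mainly from stellate and sinusoidal endothelial cells. It was at 4.82, 5.45, 6.76, 7.07 and 7.0 CPM in GF+MEV and 7.39, 10.8, 6.55, 6.87 and 7.75 CPM in GF+PBS. GF+PBS replicate 2 was highest and GF+MEV replicates 1 and 2 were lowest, and the groups overlapped. The log2 fold change was -0.33 (SE 0.17).

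*Adcyap1r1* (chr6:55451978-55501451, + strand), which encodes the PAC1 receptor for the neuropeptide PACAP, was the least abundant receptor, with 6 to 22 counts per GF+MEV liver and 13 to 24 per GF+PBS liver. It was at 0.488, 0.414, 1.06, 0.505 and 0.835 CPM in GF+MEV and 0.888, 0.728, 1.13, 1.06 and 1.44 CPM in GF+PBS. GF+MEV replicates 1, 2 and 4 lay below all GF+PBS livers, whereas replicates 3 and 5 lay within their range. The log2 fold change was -0.63 (SE 0.27).

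Levels were compared between receptors as RPKM, CPM divided by the length of annotated exons in kilobases. In GF+PBS the order of mean levels was *Gcgr* (152.9 RPKM), *Agtr1a* (25.8), *Adra1b* (23.7), *Avpr1a* (10.4), *Pth1r* (5.62), *Ednrb* (1.84), *Adra2b* (0.813), *Adra1a* (0.577) and *Adcyap1r1* (0.159). The RPKM ranges of *Agtr1a* and *Adra1b* overlapped, and no other neighbours in this order did. In GF+MEV the means were 148 RPKM for *Gcgr*, 27.8 for *Agtr1a*, 19.8 for *Adra1b*, 9.24 for *Avpr1a*, 4.15 for *Pth1r*, 1.46 for *Ednrb*, 0.546 for *Adra1a*, 0.259 for *Adra2b* and 0.10 for *Adcyap1r1*. No neighbours overlapped in GF+MEV, and *Adra1a* and *Adra2b* changed places. *Gcgr* made up 70.0% of the summed RPKM of the 9 receptors in GF+MEV and 68.9% in GF+PBS. With the longest transcript as length, *Adra1a* was at 1.11 RPKM in GF+MEV and 1.18 in GF+PBS, above *Adra2b* in both groups.

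**Figure D2:**
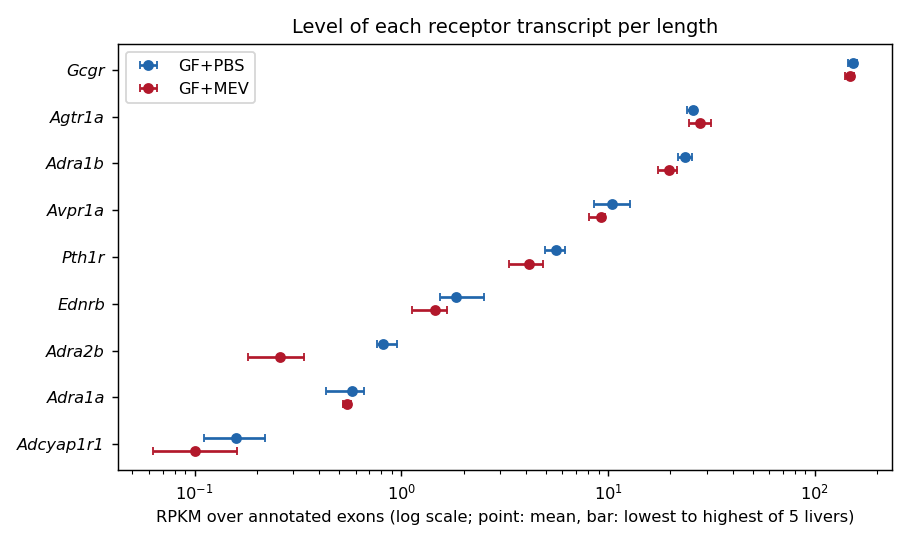
Mean RPKM of each receptor (horizontal log axis) in GF+PBS and GF+MEV, with bars from the lowest to the highest of 5 livers. *Gcgr* was highest in both groups, and the GF+MEV range of *Adra2b* lay below its GF+PBS range.

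Deviations of log2 CPM from the group means over the 10 livers described which receptors varied together, with n = 10 livers of 10 libraries that share depth and scaling. Among 36 receptor pairs, Pearson's r ran from -0.43 (*Avpr1a* with *Ednrb*) to 0.74 (*Pth1r* with *Adcyap1r1*), with a median of 0.08. The tested genes with the pattern most like *Adra1b* were *Prox1os* (r = 0.96), *Foxa2* (0.91) and *Mkks* (0.89), over n = 10 livers. For *Adra2b* they were *Dffa* (0.95), *AI480526* (0.93) and *Sox18* (0.90), and for *Pth1r* *Olfm1* (0.96), *Flvcr2* (0.93) and *Cstf1* (0.92). *Avpr1a*, with its 2 high GF+PBS livers, was most like *Tubb2a* (0.98), *Elovl3* (0.96) and *Akr1b3* (0.95). *Gcgr* was most like *Maged1* (0.95), *3830406C13Rik* (0.95) and *Dnase2a* (0.94), and *Adra1a* most like *Fam13b*, *Phf2* and *Tmem94* (each 0.95). *Ednrb* was most like *Cdk14* (0.97), *Smad7* (0.96) and *N4bp1* (0.93), and *Agtr1a* most like *Fbxl21* (0.95), *Tmem164* (0.93) and *Sucla2* (0.92). Each set is the highest 3 of the tested genes and is a description only. With so many genes and 10 livers, such a choice gives high r by itself.

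Of 18 close relatives of these receptors, 3 were tested and none passed the threshold. *Adrb3*, a β-adrenergic receptor, had a log2 fold change of 0.01 (SE 0.11, edgeR adjusted p = 0.983), *Vipr1*, a receptor for vasoactive intestinal peptide, 0.04 (SE 0.11, adjusted p = 0.874) and *Ednra*, the endothelin A receptor, -0.31 (SE 0.16, adjusted p = 0.351). The other 15, including the β1 and β2 receptors, were not analysed here. Over the longer list of 69 other hormone receptors, edgeR called 0 of 24 tested genes at an adjusted p of 0.05, DESeq2 called 0, and 4 had an unadjusted edgeR p under 0.05. *Adipor2*, an adiponectin receptor with the highest RPKM of that list, was at 526.8 ± 77.6 CPM in GF+MEV and 561.8 ± 12.1 CPM in GF+PBS (SD, n = 5 per group).

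The genes that transmit these signals were taken from 7 lists of 248 genes, of which 145 were tested, and 6 were higher and 3 lower in GF+MEV (6.21% called, beside 7.64% of all genes). G protein subunits gave 0 calls among 15 tested genes by edgeR and 0 by DESeq2, with 2 at an unadjusted edgeR p under 0.05. *Gna12*, the subunit gene with the highest RPKM, was at 168.1 ± 13.3 CPM in GF+MEV and 181.2 ± 7.31 CPM in GF+PBS (SD, n = 5 per group).

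In the cAMP arm, 1 gene rose, 1 fell and 28 of 30 did not pass. DESeq2 called 3 genes of this arm, and 4 had an unadjusted edgeR p under 0.05. *Rapgef4*, which encodes the cAMP-binding exchange factor EPAC2, was at 242, 274, 225, 204 and 311 CPM in GF+MEV and 112, 177, 115, 132 and 145 CPM in GF+PBS. All GF+MEV livers were above all GF+PBS livers (log2 fold change 0.88, SE 0.16, edgeR adjusted p = 0.000604). *Pde4b*, a phosphodiesterase that breaks down cAMP, was at 18.7, 11.9, 18.2, 23.0 and 12.7 CPM in GF+MEV and 28.5, 23.1, 27.9, 25.5 and 29.1 CPM in GF+PBS. It fell by 0.66 on the log2 scale (SE 0.19, edgeR adjusted p = 0.0139), with GF+MEV replicate 4 close to GF+PBS replicate 2. *Prkar1a*, a regulatory subunit of protein kinase A with the highest RPKM of the arm, did not pass (log2 fold change 0.08, SE 0.04, adjusted p = 0.427).

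In the calcium arm, 2 of 37 tested genes rose and none fell. DESeq2 called 3 genes of this arm, and 7 had an unadjusted edgeR p under 0.05. *Atp2a2*, the pump SERCA2 that returns calcium to the endoplasmic reticulum, was at 197, 184, 190, 204 and 203 CPM in GF+MEV and 152, 150, 157, 140 and 152 CPM in GF+PBS. The groups were well apart (log2 fold change 0.38, SE 0.04, edgeR adjusted p = 0.000368). *Itpr2*, the inositol trisphosphate receptor subtype that predominates in hepatocytes, was at 32.2, 32.4, 34.6, 33.9 and 31.3 CPM in GF+MEV and 20.1, 27.5, 24.5, 25.6 and 31.7 CPM in GF+PBS. GF+PBS replicate 5 lay within the GF+MEV range (log2 fold change 0.35, SE 0.11, edgeR adjusted p = 0.0406), and the call was lost in 10 of 18 alternative analyses. *Pygl*, liver glycogen phosphorylase and the endpoint of both arms, had the highest RPKM of the arm and a log2 fold change of -0.06 (SE 0.05, adjusted p = 0.651).

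Among genes that end receptor signals, 3 of 17 rose and 2 fell, and all 5 had groups that did not overlap. *Arrdc3*, an arrestin-domain protein that binds β-adrenergic receptors, was at 102, 76.9, 58.1, 77.1 and 98.2 CPM in GF+MEV and 227, 276, 230, 164 and 202 CPM in GF+PBS (log2 fold change -1.41, SE 0.19, edgeR adjusted p = 2.79e-05). Its relative *Arrdc2* moved the other way, at 38.8 ± 8.88 CPM (SD, n = 5) in GF+MEV and 20.6 ± 0.853 CPM (SD, n = 5) in GF+PBS (log2 fold change 0.91, SE 0.16, edgeR adjusted p = 0.000506). The RGS genes encode proteins that speed the switching off of Gi and Gq, and 3 of them passed in different directions.

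*Rgs16* was at 324, 317, 246, 219 and 461 CPM in GF+MEV and 51.2, 167, 47.4, 160 and 149 CPM in GF+PBS (log2 fold change 1.45, SE 0.45, edgeR adjusted p = 0.0144). GF+PBS replicates 1 and 3, the livers with high *Avpr1a*, were far below the other 3 GF+PBS livers, which in turn were below all GF+MEV livers. Without both of them the *Rgs16* log2 fold change was 0.98. *Rgs4* was at 2.17 ± 0.235 CPM in GF+MEV and 0.896 ± 0.403 CPM in GF+PBS (SD, n = 5 per group, log2 fold change 1.28, SE 0.27, edgeR adjusted p = 0.00653). These *Rgs4* values came from 26 to 45 counts per GF+MEV liver and 9 to 25 per GF+PBS liver. The filter of 10 counts in every liver removed this gene. *Rgs3* was at 8.45 ± 1.53 CPM in GF+MEV and 14.4 ± 2.39 CPM in GF+PBS (SD, n = 5 per group, log2 fold change -0.76, SE 0.16, edgeR adjusted p = 0.00355).

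**Figure D3:**
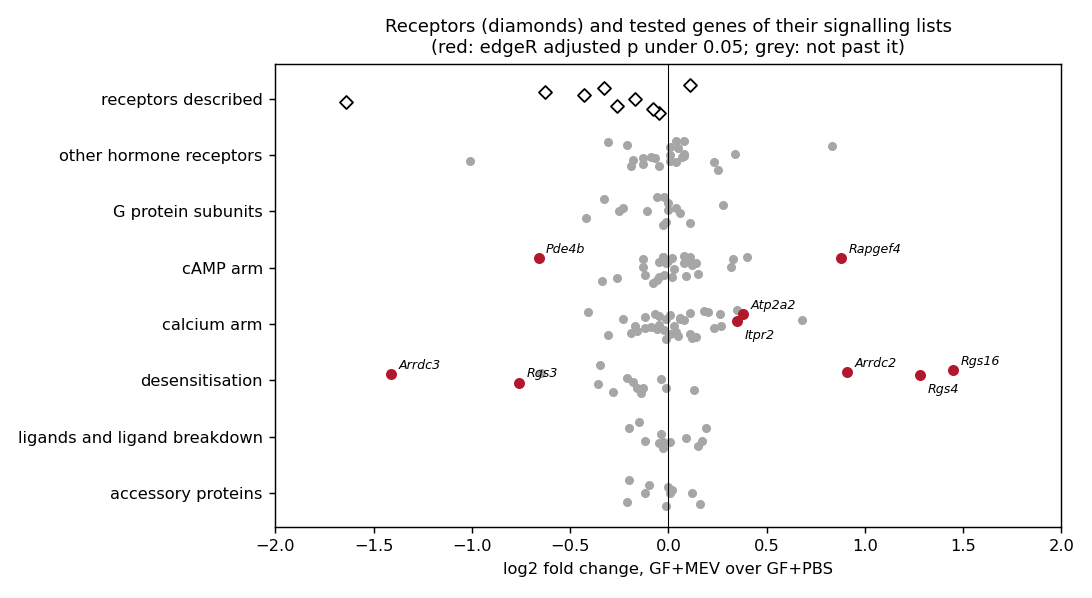
Log2 fold change, GF+MEV over GF+PBS (horizontal axis), of the 9 receptors (diamonds, no test) and of the 145 tested genes of 7 signalling lists (dots). Red dots passed an edgeR adjusted p of 0.05: 5 of the 9 were desensitisation genes, and *Adra2b* at -1.64 was the leftmost of all points.

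Ligands and enzymes of ligand breakdown gave 0 calls by edgeR among 12 tested genes, with 3 at an unadjusted p under 0.05, and DESeq2 called 2, among them *Agt*. *Agt*, the angiotensin precursor made by hepatocytes, showed a difference of 0.17 on the log2 scale (SE 0.05, edgeR adjusted p = 0.0942). Accessory proteins gave 0 calls among 10 tested genes by edgeR and 0 by DESeq2, with 1 at an unadjusted edgeR p under 0.05. Their gene with the highest RPKM, *Slc9a3r1*, a scaffold that binds the parathyroid hormone receptor, had a log2 fold change of -0.12 (SE 0.10, edgeR adjusted p = 0.488).

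**Figure D4:**
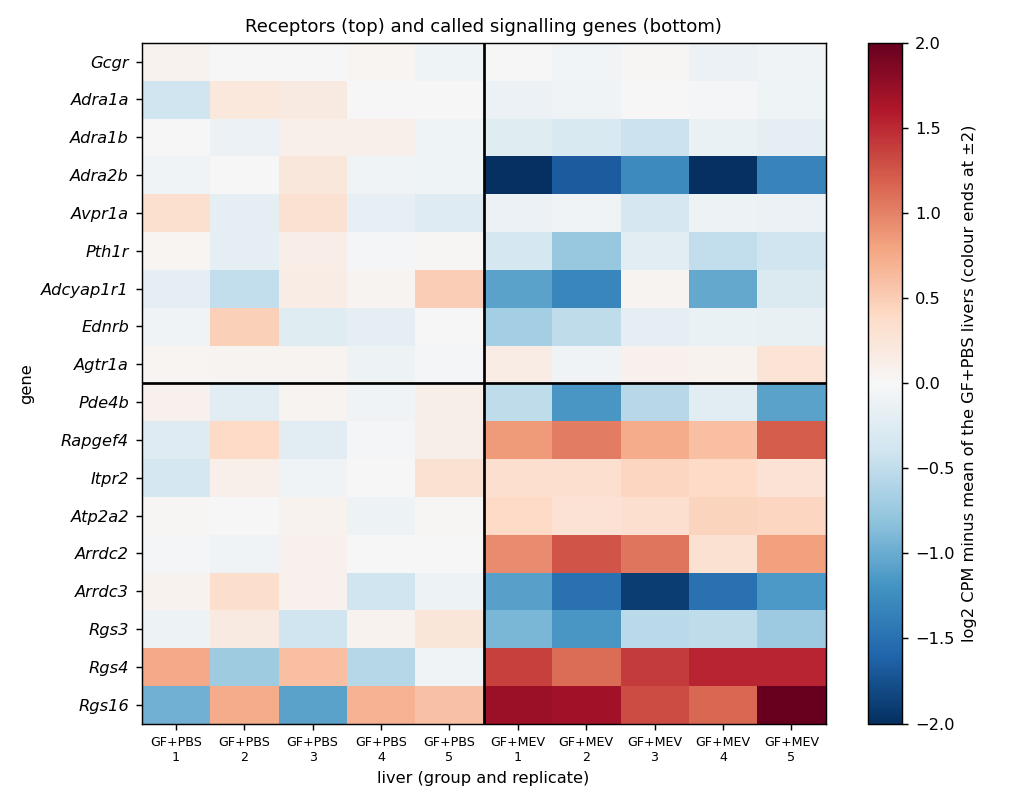
Log2 CPM of the 9 receptors (top) and the 9 called signalling genes (bottom) in each liver, minus the mean of the GF+PBS livers, as colour from blue (lower) to red (higher), ending at ±2. *Adra2b* and *Arrdc3* were lower in all 5 GF+MEV livers, and *Rgs16* was low and *Avpr1a* high in GF+PBS replicates 1 and 3.

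In bulk liver, fewer cells of a type and less RNA per cell cannot be told apart. Stellate cell markers gave 0 calls of 10, with summed levels of 293.4 to 407.7 CPM in GF+MEV and 343.7 to 365.5 CPM in GF+PBS, and Kupffer cell markers 0 of 8 (228.9 to 438.7 and 262.4 to 381.9 CPM). DESeq2 also called 0 in both lists, and 1 stellate and 0 Kupffer markers had an unadjusted edgeR p under 0.05. Of 8 sinusoidal endothelial markers *Lyve1* rose and *Clec4g* fell, with summed levels of 151.6 to 240.8 and 174.6 to 233.1 CPM. Of 3 lymphocyte markers *Cd79a* and *Cd79b* fell, with summed levels of 2.48 to 3.66 CPM in GF+MEV and 5.04 to 6.42 CPM in GF+PBS, without overlap. Of 3 cholangiocyte markers (28.1 to 79.3 and 23.2 to 29.7 CPM summed) *Krt19* rose, while *Spp1* (log2 fold change 0.52, edgeR adjusted p = 0.133) and *Sox9* (log2 fold change -0.98, edgeR adjusted p = 0.103) did not pass.

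Smooth muscle (2 markers) and skeletal muscle (3 markers) gave 0 calls by edgeR and by DESeq2, with 0 and 1 at an unadjusted edgeR p under 0.05. Their summed levels were 2.7 to 4.15 and 190.4 to 260.4 CPM in GF+MEV, and 2.98 to 4.98 and 163.9 to 561.9 CPM in GF+PBS. Among 7 general hepatocyte markers *Hnf4a* rose (82480 to 103000 and 87700 to 104100 CPM summed). Of 8 periportal markers *Sds*, *Cps1*, *Ass1* and *Cdh1* rose (8261 to 11080 and 6866 to 8570 CPM summed), and of 7 pericentral markers *Axin2* fell (11210 to 12620 and 11960 to 12430 CPM summed). The part of these cell type and zone markers in the receptor values was not tested.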

How the data were processed

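Liver RNA of 5 GF+MEV and 5 GF+PBS mice was analysed. Reads had been aligned by the authors with STAR (2.7.3a) on GRCm38 and assigned to Ensembl genes by HTSeq, with genes under 20 counts over all samples removed. The deposited values are these raw counts, not normalized. The strand setting of the counting, the annotation release and the hour of liver collection were not given in the sources used here. The table held 5 further columns that match no described sample and were not used. Symbols, positions and exon lengths came from GENCODE on GRCm38, and 10 identifiers had no symbol.

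Genes with at least 20 counts over the 10 livers were fitted with edgeR 4.0.16 (R 4.3.3): TMM, quasi-likelihood on treatment alone, Benjamini-Hochberg over all tested genes, threshold 0.05. Standard errors were computed on log2 CPM (prior count 2). The fits were tested on simulated data. Alternatives were DESeq2 1.42.0, RLE or upper-quartile scaling, removal of the count filter, a minimum of 10 counts in every liver, a replicate block, summed GF+PBS livers, and each liver left out. The count filter kept 12147 of the 12148 deposited genes, so its removal nearly repeated the main fit (927 against 928 calls). The receptors and the gene lists were chosen with earlier results of these data known. Named were all receptors, their close relatives, in each list every gene past the threshold (at most 6) and that of highest RPKM, and per receptor of at least 1 CPM the 3 genes with the highest r. *Agt* was named after its values were seen. Some genes of the lists enter the counts but are not reported here by name. Livers were taken as separate samples, so p-values measure only the spread between them.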

Additional observations from a re-analysis of the deposited data

Results flagged for a closer look

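A liver was marked as distant when its gap to the nearest liver of its group exceeded 0.71 of the group's range, and 5 of 48 groups of 5 values held one, where chance at 1 in 20 gives 2.4. *Adra2b* was at 3.81 CPM in GF+PBS replicate 3, with the other 4 livers at 3.06 to 3.25 CPM. *Avpr1a* was at 21.6 CPM in GF+MEV replicate 3, below the other 4 at 25.2 to 25.9 CPM. *Ednrb* was at 10.8 CPM in GF+PBS replicate 2, above the other 4 at 6.55 to 7.75 CPM. *Prkar1a* was at 146 CPM in GF+MEV replicate 2, below 159 to 165 CPM in the rest. The scaling factor by TMM was 0.89 for GF+MEV replicate 2 and 0.978 to 1.01 for its group's other 4 libraries.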

How the results depend on the processing

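The 928 calls over all genes became 561 (352 higher, 209 lower) when GF+PBS replicates 1 and 3, and 4 and 5, were each summed into 1 sample, and ran from 696 to 926 with 1 liver left out. These were the most alike GF+PBS pairs, with a chi-square per gene of 6.36 and 7.2. Whether the livers of such a pair are independent of each other was not tested. Upper-quartile scaling turned the split from 500 higher and 428 lower to 428 higher and 612 lower. Calls among the signalling genes, 9 as reported, ran from 7 to 13 under all alternatives and from 8 to 12 with 1 liver left out. The count of receptors past the threshold, which is no test of them since they were chosen from this comparison, was 3 as reported, 2 to 3 with 1 liver left out, and 1 (*Adra2b*) both with the summed GF+PBS livers and without GF+PBS replicates 1 and 3, the latter added after the data were seen. *Adra1b* did not pass without GF+MEV replicate 1, 2 or 3 or GF+PBS replicate 1, 3 or 4, with its log2 fold change between -0.30 and -0.22 throughout. *Pth1r* failed in 2 of 18 alternatives and *Pde4b* in 2. Of 161 alternative receptor log2 fold changes, 1 moved by more than the SD between livers, that of *Avpr1a* without GF+PBS replicates 1 and 3. Leaving out 1 of 5 livers shifts a group mean by less than this SD, so those alternatives could hardly be marked. The count is therefore no measure of stability. The 3 genes most like *Gcgr* and *Agtr1a* by Pearson's r shared none with those by Spearman's rho. Fits with the replicate block gave 792 calls, 9 signalling genes and 2 receptors, without *Adra1b*. Same-numbered livers correlated between -0.188 and 0.166, and 2 of 5 correlated best with their own number. With 5 weak correlations, this check cannot settle whether the numbers pair the livers. With 6 to 24 counts per liver, *Adcyap1r1* had no value under the filter of 10 counts in every liver.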

Other observations

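Among 15 enzymes and regulators of glycogen and gluconeogenesis, 5 rose in GF+MEV and none fell, by edgeR at an adjusted p of 0.05. Some of these genes were named by the study for these livers, so their direction is not independent evidence. Outside the enzymes of glucose synthesis, the glycogen-targeting subunits of protein phosphatase 1 that rose were *Ppp1r3b* and *Ppp1r3g*, which favour glycogen synthesis. Another tested subunit of this kind did not pass. *Ppp1r3b* was at 122.2 ± 15 CPM in GF+MEV and 51.8 ± 18.5 CPM in GF+PBS (SD, n = 5 per group, log2 fold change 1.24, SE 0.22, edgeR adjusted p = 0.000441). *Ppp1r3g* was at 44.1, 26, 26.4, 53.1 and 24.3 CPM in GF+MEV and 1.17, 1.46, 0.833, 5.15 and 5.28 CPM in GF+PBS. GF+PBS replicates 4 and 5 were the higher ones of their group.

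*Krt19*, a keratin of bile duct cells, was at 5.67, 16.8, 8.21, 9.32 and 0.964 CPM in GF+MEV and 0.5, 0.504, 0.714, 0.303 and 0.781 CPM in GF+PBS (log2 fold change 3.87, SE 0.70, edgeR adjusted p = 0.000631). The groups did not overlap, and the GF+MEV livers differed widely among themselves. These *Krt19* values came from 93, 244, 170, 166 and 15 counts in GF+MEV and 9, 9, 12, 6 and 13 in GF+PBS. GF+MEV replicate 5 was thus apart from GF+PBS replicate 5 by only a few counts. The other cholangiocyte markers did not pass: *Spp1* was at 35.7 ± 14.6 CPM in GF+MEV and 24.8 ± 3.0 CPM in GF+PBS (SD, n = 5 per group, log2 fold change 0.52, edgeR adjusted p = 0.133). *Sox9* lay in the other direction, at 0.961 ± 0.440 CPM in GF+MEV and 1.88 ± 0.784 CPM in GF+PBS (SD, n = 5 per group, log2 fold change -0.98, edgeR adjusted p = 0.103, unadjusted p = 0.0124), with overlapping groups.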
